A study of Oncorhynchus mykiss with 12 samples.

Results

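The miRNAs described here are 6 rows of a liver count table from rainbow trout: 2 sequences named miR-216b, 1 named miR-375, 2 from the 5p and 3p arms of miR-7, and 1 named miR-8159. They are 6 of the 1696 sequences listed. The first 5 carry names of miRNAs known from the pancreas, and miR-8159 was added because its raw counts follow theirs across the 12 libraries. The sequences were thus selected on their estimated counts in these libraries, so their levels, differences and covariation are given as a description. Fits over all sequences included these 6. Their calls are given beside the share called, and nothing is read from them. Liver was taken from adult wild type trout, strain label Walbaum, 1 library per fish. The fasted group (fish 7, 8, 10 and 13) had gone 4 days without food. The other groups were refed acutely, with a meal free of carbohydrate (noCHO, fish 20, 21, 31 and 33) or high in carbohydrate (highCHO, fish 38, 45, 49 and 50).

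miRNAs are short RNAs of about the length of the sequences below that pair with messenger RNAs, mainly through the seed at bases 2 to 8, and lower their output. In mouse and zebrafish, miR-216a, miR-216b and miR-217 are expressed from neighbouring genes and mark the enzyme-secreting acinar cells of the exocrine pancreas. miR-375 is abundant in the hormone-secreting islets of mouse and zebrafish, and miR-7 is enriched in mouse islets and in neurons. In salmonids the pancreas is not a compact organ but lies scattered in the fat around the pyloric caeca. No role is given here for miR-8159.

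The sequences below are printed as the deposited table gives them, 5′ to 3′ with T for U, and the seed is in capitals. The prefix of a name is the species matched (ssa, Atlantic salmon; dre, zebrafish; fru, fugu), and endings such as R+2 or 1ss22AC mark where the authors found another length or base. They are shown because the near-identity of the miR-216b pair and the separate seeds bear on how the counts are read.
ssa-miR-216b-5p: tAATCTCAgctggcaactgtga
dre-miR-216b: tAATCTCTgcaggcaactgtga
dre-miR-375: tTTGTTCGttcggctcgcgtta
fru-miR-7_R+2: tGGAAGACtagtgattttgttgt
ssa-miR-7a-3-3p_1ss22AC: cAACAAATcacagtctgccaac
ssa-miR-8159-5p_R-2: tCAGTAACtggaatctgtccct

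The 6 sequences have 6 different seeds, and all are 22 nt long except fru-miR-7_R+2 at 23 nt. The miR-216b pair differ by 2 substitutions, A8T and T11A (positions from 1 at the 5′ end of ssa-miR-216b-5p). The first of these lies in the seed. In the same table a row named dre-miR-216a_L+1 holds the whole of ssa-miR-216b-5p from its base 2, with 1 extra base at the 5′ end, in capitals here.
dre-miR-216a_L+1: Ctaatctcagctggcaactgtga
The letters of ssa-miR-216b-5p therefore carry a miR-216a name elsewhere in the table, and the name alone does not say which of the 2 genes the reads came from. The miR-8159 sequence shares its seed, and its first 8 bases, with ipu-miR-459_R+1.
ipu-miR-459_R+1: tCAGTAACaaggattcatcctgt
No other sequence of the table has this seed. ipu-miR-459_R+1 was at 1314 CPM in fish 38 and 64.0 to 742 CPM in the other 11 libraries.

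Counts assigned to miRNAs ran from 197684 in highCHO fish 49 to 3057706 in noCHO fish 33. Levels are given in CPM, counts scaled to a common library size by edgeR's TMM method, on which 1 count is worth 0.364 CPM in fish 33 and 4.42 CPM in fish 49. Results are given with and without fish 38, a choice made with its counts of these sequences known and not from a library measure. Fish 38 also lay outside the range of the other 11 libraries in some library measures. It had the most raw reads (9801957, against 6367480 to 9208110) and the lowest miRNA share of mappable reads (25.5%, against 29.8 to 56.0%). Inserts under 15 nt made up 14.2% of its adapter-containing reads, inside the range of the others (6.18 to 32.2%). Both shares also differed by group. Every highCHO library had more short inserts (14.2 to 32.2%) than any fasted or noCHO library (6.18 to 13.0%). The miRNA share was 25.5 to 41.2% in highCHO libraries and 43.1 to 56.0% in the fasted and noCHO libraries. Whether this bears on the levels below was not tested. The labels name no batch or run.

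Of all 52446 counts of the 6 sequences, 93.3% came from fish 38. That library held 98.8% of the counts of ssa-miR-216b-5p and of miR-8159, 98.0% of dre-miR-216b and 80.0% of dre-miR-375. It held 19.8% of fru-miR-7_R+2 and 13.5% of ssa-miR-7a-3-3p_1ss22AC. So 4 of the 6 sequences were concentrated in 1 fish, with most of their counts there, and the miR-7 pair were not. These shares are not scaled for depth. Fish 38 held 1713317 miRNA counts, against 197684 to 3057706 in the other libraries.

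**Figure D1:**
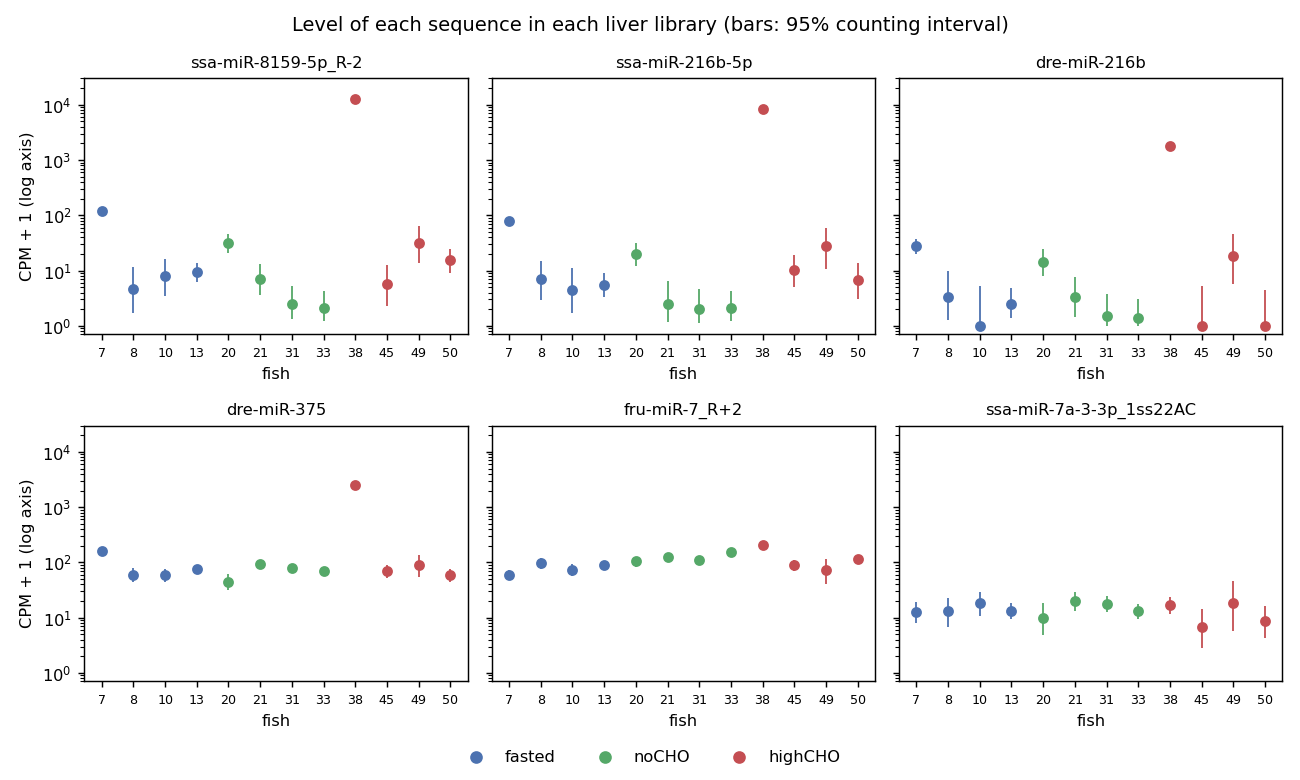
CPM + 1 of each sequence on a log axis in each of the 12 libraries, coloured by group; bars are 95% exact counting intervals of single libraries. Fish 38 lies over 10-fold above every other library in 4 panels, and fish 7 comes next in those panels. The miR-7 panels look flatter on the shared axis, at 58.7 to 204 CPM for fru-miR-7_R+2 and 5.78 to 19.1 CPM for ssa-miR-7a-3-3p_1ss22AC.

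Of the exocrine pair, ssa-miR-216b-5p had 127, 5, 3 and 12 counts in fasted fish 7, 8, 10 and 13. It had 17, 2, 2 and 3 counts in noCHO fish 20, 21, 31 and 33, and 15845, 8, 6 and 6 counts in highCHO fish 38, 45, 49 and 50. Fish 38 was thus far above the rest, fish 7 was second, and the groups overlapped. In CPM the order was 8261 in fish 38 (95% exact interval 8133 to 8390), 78.6 in fish 7 (65.5 to 93.5), 26.5 in fish 49 (9.74 to 57.7) and 19.2 in fish 20 (11.2 to 30.7). The remaining 8 libraries lay between 0.991 and 9.24 CPM. The intervals of fish 38 and fish 7 were separate from each other and from all others, while those of fish 49 and fish 20 overlapped. ssa-miR-216b-5p ranked 19 among all sequences of fish 38, 151 in fish 7 and 206 or lower in each of the other 10 libraries.

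dre-miR-216b, the other exocrine sequence, had 43, 2, 0 and 4 counts in the fasted fish, 12, 3, 1 and 1 in the noCHO fish and 3476, 0, 4 and 0 in the highCHO fish, in the same fish order. Again fish 38 was highest, fish 7 second and fish 20 next by count. The levels were 1812 CPM in fish 38, 26.6 CPM in fish 7, 17.7 CPM in fish 49 and 13.5 CPM in fish 20. The last 2 rested on 4 and 12 counts, and their intervals overlapped (4.82 to 45.3 and 7.00 to 23.6 CPM). In the 3 libraries at 0, the floor of 3 counts is 3.42 CPM (fish 10), 3.47 CPM (fish 45) and 2.87 CPM (fish 50), and the upper bounds of the exact intervals are 4.20, 4.26 and 3.52 CPM.

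miR-8159, for which no role is given here, was the most abundant of the 6 in fish 38. Its counts were 195, 3, 6 and 22 in the fasted fish, 27, 8, 3 and 3 in the noCHO fish and 24372, 4, 7 and 15 in the highCHO fish. The same 2 fish led and the groups overlapped. Fish 38 held 12706 CPM (12548 to 12865), 105 times the 121 CPM of fish 7, and the next were 31.0 CPM in fish 49 and 30.5 CPM in fish 20. Its share of all miRNA counts in fish 38 was 1.42% (95% exact interval 1.40 to 1.44%), rank 14. ssa-miR-216b-5p was also 105 times higher in fish 38 than in fish 7, and dre-miR-216b 68.1 times.

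miR-375, the endocrine miRNA, differed in having a clear level in every library. Its counts were 261, 49, 51 and 199 in the fasted fish, 39, 119, 156 and 187 in the noCHO fish and 4795, 59, 20 and 60 in the highCHO fish. Fish 38 and fish 7 were again the highest 2. Fish 38 held 2500 CPM (2430 to 2571), 15.5 times the 162 CPM of fish 7 (143 to 182). The other 10 libraries lay between 44.0 and 91.0 CPM, so fish 7 was 2.37 times the median of the 11 libraries without fish 38 (68.2 CPM), against 13.7 times for ssa-miR-216b-5p and 17.7 times for miR-8159.

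fru-miR-7_R+2, from the 5p arm of the endocrine miRNA miR-7, had a different pattern. Its estimated counts include fractions. Fish 38 was highest, at 204 CPM (184 to 225), but only 1.32 times noCHO fish 33 (155 CPM). Fish 7, second in the sequences above, was the lowest of all 12 at 58.7 CPM. The fasted, noCHO and highCHO groups held 79.1 ± 16.8, 123 ± 23.1 and 120 ± 58.6 CPM (SD, n = 4 each), and highCHO without fish 38 91.8 ± 20.4 CPM (n = 3). The noCHO fish ran from 103 to 155 CPM and the fasted fish from 58.7 to 95.7 CPM. As a plain share of miRNA counts these groups overlapped, since noCHO fish 20 (0.00844%) was below fasted fish 8 (0.0115%) and fish 13 (0.00950%). How many of all sequences separate these groups in CPM was not counted, so nothing is read from the separation.

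ssa-miR-7a-3-3p_1ss22AC, from the other arm, did not stand out in fish 38. It held 15.6 CPM there (30 counts, 10.6 to 22.3 CPM), below noCHO fish 21 (19.1 CPM), fish 49 (17.7 CPM), fasted fish 10 (17.1 CPM) and noCHO fish 31 (16.8 CPM). Across all 12 libraries it ran from 5.78 to 19.1 CPM, on 4 to 34 counts. The groups held 13.2 ± 2.58, 14.3 ± 4.57 and 11.7 ± 5.86 CPM (SD, n = 4). Of the sequences with pancreas names, miR-216b and miR-375 therefore stood out in fish 38. fru-miR-7_R+2 was highest there too, but only 1.32 times the next library, and ssa-miR-7a-3-3p_1ss22AC was not highest there.

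A rise of a single fish can be set against all other sequences. Of the 355 sequences with at least 100 counts over the 12 libraries, 66 (18.6%) were highest in fish 38, and 5 of the 6 were among them. Over 3-fold above the highest other library were 21 (5.92%) and over 10-fold 13 (3.66%), with 4 of the 6 in both. The rule used these values, so nothing is read from the counts. Some sequences also reached the minimum of 100 counts only through fish 38. In the other 11 libraries together dre-miR-216b had 70 counts and PC-5p-13249_39 had 0. Just under the 10-fold mark were the candidates PC-5p-12158_44 (8.06-fold) and PC-3p-11644_46 (7.47-fold), and just over it fru-miR-135b_R+1 (10.9-fold). In fasted fish 7, 23 of the 355 (6.48%) were above the 10 libraries other than fish 38, with 4 of the 6 among them.

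**Figure D2:**
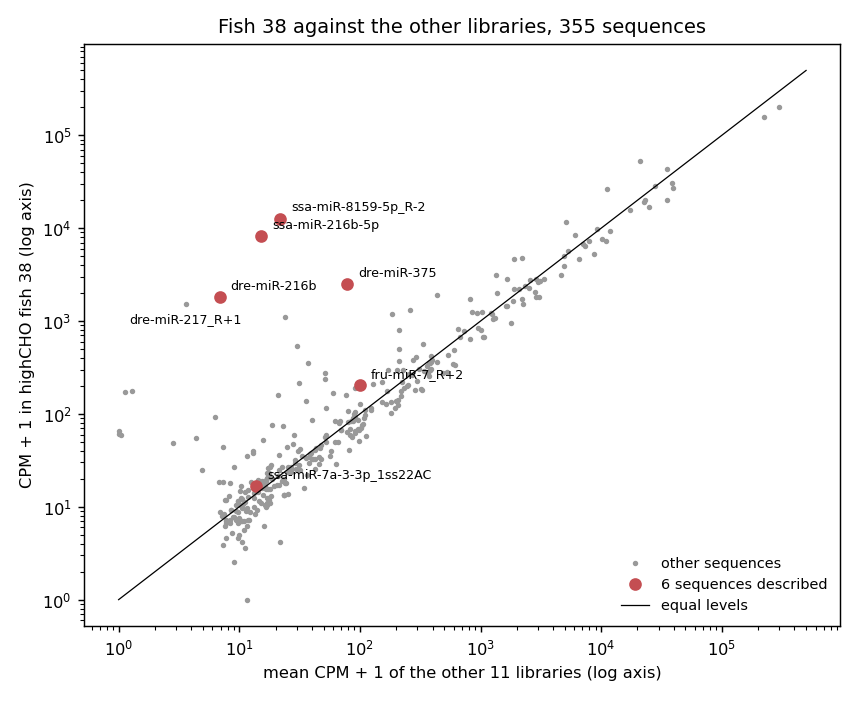
CPM + 1 in fish 38 (vertical, log axis) against the mean CPM + 1 of the other 11 libraries (horizontal, log axis) for 355 sequences. The miR-216b pair, dre-miR-375, miR-8159 and dre-miR-217_R+1 lie far above the line of equal levels, fru-miR-7_R+2 lies close above it and ssa-miR-7a-3-3p_1ss22AC on it.

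The remaining pancreatic sequences of the table were listed by family name. dre-miR-217_R+1, an exocrine miRNA that is not among the 6, is printed here with its seed in capitals.
dre-miR-217_R+1: tACTGCATcaggaactgattgga
It had 25, 0, 1 and 1 counts in the fasted fish, 5, 2, 0 and 0 in the noCHO fish and 2962, 0, 1 and 0 in the highCHO fish. Fish 38 and fish 7 led once more, at 1544 and 15.5 CPM, a 99.8-fold step. All 8 sequences named miR-216a, miR-216b or miR-217 had counts in fish 38, and their sum was 11651 CPM there against 1.46 to 121 CPM elsewhere. The 33 sequences of the endocrine list (miR-375, miR-7, miR-184, miR-129, miR-182, miR-183, miR-96 and miR-153) summed to 2876 CPM in fish 38 against 191 to 319 CPM elsewhere, with 9 of them at 0 in fish 38. These sums hold members that were selected on their counts. Without the 2 members the exocrine list held 1579 CPM in fish 38 against 0 to 15.5 CPM, nearly all of it miR-217, and without the 3 members the endocrine list held 156 against 25.0 to 109 CPM. dre-miR-375_R+1, which is not among the 6, was at 28.2 CPM in fish 38 and at most 2.48 CPM elsewhere. Apart from miR-375 and miR-7, the endocrine list held few counts, and its sequences differed. dre-miR-129-3p was at 32.3 CPM in fish 38 and at most 8.05 CPM elsewhere. dre-miR-129-5p_R-1 was at 14.9 and at most 1.24 CPM, and ccr-miR-153c at 7.56 and at most 2.21 CPM. dre-miR-183-5p, dre-miR-182-5p_R+2, fru-miR-96_R-1 and dre-miR-153a-3p, at 15.6, 4.17, 13.3 and 16.7 CPM in fish 38, were each exceeded by another library (34.4, 13.3, 22.1 and 64.5 CPM). dre-miR-184_R-2 was at 1.30 CPM in fish 38 and 42.3 CPM in noCHO fish 20.

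Reads named for the opposite arms of miR-216a, miR-216b, miR-217, miR-375 and miR-8159, which did not enter the choice of the 6, were found almost entirely in fish 38. The opposite arm of miR-7 was mixed. The 3p sequence among the 6 had 30 of its 223 counts in fish 38, and ssa-miR-7a-2-3p_1ss20TC had 4 of 13. The rarer ssa-miR-7a-5-3p had all 5 of its counts there. ssa-miR-8159-3p, printed with its seed in capitals, had 113 counts there, 1 in fish 7 and none in the other 10 libraries.
ssa-miR-8159-3p: aGGGCCGGctggttactgcgc
In fish 38 that is 0.464% of the miR-8159 5p count. ssa-miR-216a-3p had 17 counts, ssa-miR-216b-3p_L+1R-1 had 16 and the miR-217 opposite arm ccr-mir-217-p3_2ss18CT20CG had 24 in fish 38, with 0 in the other 11. ssa-miR-375-5p_R+1 had 15 counts in fish 38 and 1 in fish 7. At the depth of the other libraries such minor arms could not be detected from main arms of a few counts. This limit holds less for miR-375, whose main arm had 1200 counts in the other 11 libraries together. The candidate PC-5p-9254_65 holds the whole miR-8159 5p sequence from its base 2, with 1 extra base at the 5′ end, in capitals here.
PC-5p-9254_65: Ctcagtaactggaatctgtccct
It had 115 counts in fish 38 and 0 in the other 11, and equals 0.472% of the miR-8159 count in fish 38. By its letters it could be a start variant of the same sequence under a candidate name, but the gene it came from was not analysed.

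Within single libraries the counts of these sequences could be set against ssa-miR-216b-5p, so that library size drops out. Libraries with at least 10 counts of ssa-miR-216b-5p were fish 38, 7, 20 and 13. miR-8159 stood at 1.54 counts per count of ssa-miR-216b-5p in fish 38 (95% exact interval 1.51 to 1.57), 1.54 in fish 7 (1.22 to 1.94), 1.59 in fish 20 (0.835 to 3.11) and 1.83 in fish 13 (0.869 to 4.06). These 4 intervals overlapped, in libraries of all 3 groups. dre-miR-217_R+1 stood at 0.187 in fish 38 (0.180 to 0.194), 0.197 in fish 7 (0.123 to 0.304), 0.294 in fish 20 (0.0848 to 0.831) and 0.0833 in fish 13 (0.00195 to 0.563). Here too the intervals overlapped, with the last resting on 1 count. dre-miR-216b was at 0.219 in fish 38 (0.211 to 0.228) and higher in fish 7, at 0.339 (0.234 to 0.482), and fish 20, at 0.706 (0.308 to 1.57), with intervals that did not reach the interval of fish 38. In fish 13 it was 0.333, on 4 counts. Both miR-216b rows hold only whole counts.

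The ratio of miR-375 to ssa-miR-216b-5p was not alike. It was 0.303 in fish 38 (0.293 to 0.313), 2.06 in fish 7 (1.66 to 2.56), 2.29 in fish 20 (1.27 to 4.32) and 16.6 in fish 13 (9.28 to 32.6). In the other 8 libraries it was 3.33 to 78.0. The ratio of fru-miR-7_R+2 ran from 0.0247 in fish 38 and 0.746 in fish 7 up to 142 in fish 33. So the intervals of the miR-8159 and miR-217 ratios overlapped in these 4 libraries, and those of miR-375 in fish 38 and fish 7 did not. In the other 8 libraries, with 2 to 8 counts of ssa-miR-216b-5p each, the miR-8159 ratio ran from 0.5 in fish 45 (0.110 to 1.87) to 4.0 in fish 21 (0.798 to 38.7).

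**Figure D3:**
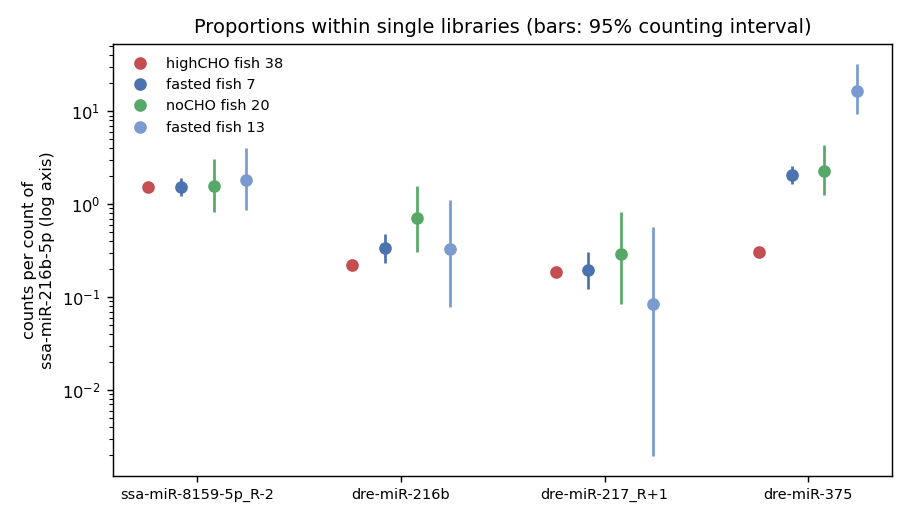
Counts of 4 sequences per count of ssa-miR-216b-5p (log axis) in the 4 libraries with at least 10 counts of it; bars are 95% exact counting intervals. The miR-8159 ratios sit between 1.54 and 1.83, whereas those of dre-miR-375 run from 0.303 in fish 38 to 16.6 in fish 13.

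The counts of fish 7 were 0.802% of those of fish 38 for ssa-miR-216b-5p, 0.800% for miR-8159, 0.844% for dre-miR-217_R+1, 1.24% for dre-miR-216b and 5.44% for dre-miR-375. In the other 10 libraries the median was 0.0347% for ssa-miR-216b-5p and 0.0267% for miR-8159, and fish 20 was the highest (0.107% and 0.111%). For the candidate PC-5p-3432_269, at 338.5 counts in fish 38, fish 7 had 0. The share in fish 7 was 0.885% for ssa-miR-8159-3p (1 count), 0.308% for PC-5p-4786_167 (1 count) and 2.13% for PC-5p-1744_747. A carry-over of reads between libraries was not tested.

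Outside fish 38, covariation was examined over 11 libraries on log2(CPM + 1). Because fish 38 was far above the other libraries for 4 of the 6 sequences, coefficients between the 6 were computed only without it. All coefficients are descriptions with no p, since likeness chose miR-8159 and libraries share depth and scaling. miR-8159 and ssa-miR-216b-5p had Pearson's r 0.91 and Spearman's rho 0.77. Without fish 7, r was 0.84, and without fish 7 and 49, the 2 farthest from the median of ssa-miR-216b-5p, it was 0.78. Of the 15 pairs among the 6 sequences this r was the highest.

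The miR-216b pair had r 0.79 and rho 0.57, and r was 0.48 without fish 7 and 49. dre-miR-216b and miR-8159 had r 0.80 and rho 0.52, and r was 0.53 without fish 7 and 49. Several of these libraries hold 0 to 4 counts, so these weaker values rest on few reads and on the highest libraries. miR-217 had r 0.89 with miR-8159 (rho 0.79), 0.90 with dre-miR-216b (rho 0.71) and 0.80 with ssa-miR-216b-5p (rho 0.56). Without fish 7 and 49 these r were 0.70, 0.77 and 0.46. The median count of miR-217 in the 11 libraries was 1, so its values too rest on few reads and few fish.

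miR-375 had r 0.39 and rho 0.06 with ssa-miR-216b-5p and r 0.43 and rho 0.13 with miR-8159. Both rested on fish 7: without it r was −0.29 and −0.23. fru-miR-7_R+2 ran opposite, with r −0.76 and rho −0.65 against ssa-miR-216b-5p, and r −0.46 without fish 7 and 49. The 2 miR-7 arms had r −0.06 and rho 0.04 with each other. The median r over the 15 pairs was 0.19. Outside fish 38, then, miR-8159 moved with ssa-miR-216b-5p and, on few counts, with dre-miR-216b and miR-217. It did not move with miR-375 once fish 7 was left out, nor with ssa-miR-7a-3-3p_1ss22AC (r −0.09, rho −0.09). Against fru-miR-7_R+2 it ran opposite, with r −0.69 and rho −0.56, and r −0.50 without fish 7.

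**Figure D4:**
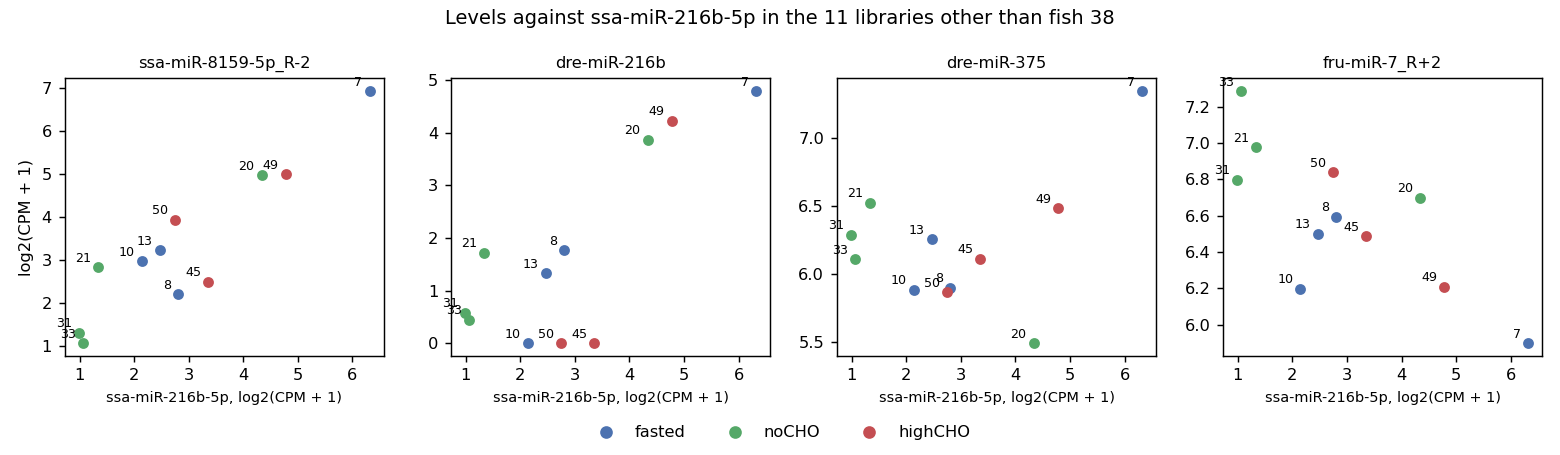
log2(CPM + 1) of 4 sequences against ssa-miR-216b-5p in the 11 libraries other than fish 38, each point a fish numbered and coloured by group. miR-8159 climbs with ssa-miR-216b-5p (r 0.91), fish 7 is the highest point of the miR-375 panel, and fru-miR-7_R+2 runs downward (r −0.76).

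By group, the highCHO means of the 4 concentrated sequences were those of fish 38. ssa-miR-216b-5p held 23.1 ± 37.0 CPM in fasted, 5.70 ± 8.99 in noCHO and 2076 ± 4123 in highCHO fish (SD, n = 4 each), and 13.8 ± 11.1 CPM in highCHO fish without fish 38 (n = 3). The medians were 5.27, 1.31 and 17.9 CPM, and in every group 1 fish carried most of the sum. miR-8159 held 34.9 ± 57.3, 9.79 ± 14.0 and 3189 ± 6345 CPM, and 16.6 ± 13.3 CPM without fish 38. dre-miR-375 held 88.5 ± 49.4, 70.1 ± 19.8 and 678 ± 1214 CPM, and 71.3 ± 15.8 CPM without fish 38. dre-miR-216b held 7.63 ± 12.7, 4.17 ± 6.31 and 457 ± 903 CPM, and 5.90 ± 10.2 CPM without fish 38. For each of these 4 the SD of the highCHO group was larger than its mean, and without fish 38 the 3 groups overlapped.

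On the log2(CPM + 1) scale, ssa-miR-216b-5p was 2.54 higher in highCHO than in fasted fish (SE 2.57), and 0.20 higher without fish 38 (SE 1.14). miR-8159 had a difference of 2.43 (SE 2.72) with fish 38 and −0.02 (SE 1.28) without. dre-miR-216b went from 1.79 (SE 2.75) to −0.56 (SE 1.73), and dre-miR-375 from 1.09 (SE 1.33) to −0.19 (SE 0.39). None of these 4 differences was as large as 2 of its SE, with or without fish 38. With fish 38 in the group, 1 fish sets both the difference and its SE. The comparison with the SE therefore cannot decide whether the groups differ, and nothing is read from it. Against noCHO fish, highCHO fish differed by 4.04 (SE 2.52) for ssa-miR-216b-5p and 3.72 (SE 2.67) for miR-8159, and by 1.70 (SE 1.00) and 1.26 (SE 1.16) without fish 38. The comparison of noCHO with fasted fish does not involve fish 38, and there ssa-miR-216b-5p differed by −1.50 (SE 1.26), miR-8159 by −1.28 (SE 1.39), dre-miR-375 by −0.24 (SE 0.41) and fru-miR-7_R+2 by 0.64 (SE 0.20). The noCHO and highCHO comparisons share the same fasted fish.

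In edgeR's quasi-likelihood fit over all 12 libraries, all 6 sequences passed the filter on low counts, and 0 of the 6 passed an adjusted p threshold of 0.05 in any of the 3 comparisons. Over all 340 sequences the called share was 0% for noCHO against fasted, 6.18% for highCHO against fasted and 2.35% for highCHO against noCHO. At an unadjusted p under 0.05 stood 0, 4 and 4 of the 6, beside 23, 92 and 66 of all 340. Without the filter, 4 of the 6 (both miR-216b sequences, miR-375 and miR-8159) passed in both highCHO comparisons, where the called shares were 3.43% and 3.3%, and 0 of the 6 did in noCHO against fasted (0.254%). DESeq2 gave an adjusted p to 2, 2 and 1 of the 6 in the 3 comparisons and called 0, beside called shares of 0.602%, 10.5% and 11%. It gave none to the miR-216b pair, miR-375 and miR-8159 in any of them. Without fish 38, edgeR called 0 of the 6 in all 3 comparisons, where the called shares were 0%, 6.78% and 5.31%. Since these counts chose the sequences, nothing is read from these calls.

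Markers of other cell types moved in fish 38 as well. Lists of miRNA families were summed in each library. The intestine and other epithelium list held 47 sequences, of miR-192, miR-194, miR-200, miR-141, miR-429, miR-203 and miR-205. It summed to 64398 CPM in fish 38 against 17520 to 29224 CPM in the other 11. Of its 15 sequences with at least 100 counts, 12 were highest in fish 38. Those that were not were all named miR-203, such as ssa-miR-203b-3p_L+1R-2 (9.73 against up to 27.5 CPM). Its most abundant sequence, ipu-miR-192, was at 53161 CPM against 14022 to 25801 CPM. That sequence made up most of the sum and was abundant in every liver library. The muscle list (8 sequences, led by dre-miR-1 at 160 CPM) held 188 CPM against 6.91 to 64.5 CPM, with both of its sequences over that count highest in fish 38. Of the hepatocyte miRNA miR-122, dre-miR-122_R-1 was lowest in fish 38, at 201586 CPM against 229417 to 435270 CPM elsewhere. The 13 sequences of its list summed to 203611 against 232009 to 439022 CPM, and dre-miR-122_R-1 made up most of that sum. The rarer ssa-miR-122-2-3p_1ss10AT and ola-mir-122-p5_2ss12AG23TA were also lowest in fish 38. In contrast, ssa-mir-122-1-p3_1ss12GA was at 158 CPM there, inside the range of the other libraries (13.3 to 172 CPM).

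The other 5 lists lay inside the range of the other libraries. Smooth muscle and fibroblast (26 sequences, led by dre-miR-199-5p at 30316 CPM) held 76519 against 43738 to 77942 CPM. Of its 15 sequences over 100 counts, 7 were highest in fish 38, all named miR-143, miR-145 or miR-214 and none miR-199. Among them were ccr-miR-143 (26595 against at most 12692 CPM) and ssa-miR-145-3p_L+2R-1 (11560 against at most 9750 CPM). The sum thus pools families that differed. The erythrocyte list (9 sequences, led by dre-miR-451_R-1 at 1064 CPM) held 1912 against 1489 to 4832 CPM, and the endothelial list (4, led by ccr-miR-126-3p_L-1R+1 at 7365 CPM) 8777 against 7779 to 12477 CPM. The leukocyte list (16, led by dre-miR-142a-5p at 1444 CPM) held 1980 against 1167 to 3152 CPM, and the neural list (20, 11 of them at 0 in fish 38, with dre-miR-9-5p at 3.13 CPM) 16.9 against 9.94 to 44.6 CPM. Fish 7, second in the concentrated sequences, lay above the 10 libraries other than fish 38 in 2 lists: exocrine (121 against 1.46 to 48.6 CPM) and leukocyte (3152 against 1167 to 3099 CPM). Its intestinal sum of 21630 CPM was inside their range, and its muscle sum of 6.91 CPM was below theirs (13.3 to 64.5 CPM). Whether other tissue in the sample had a part in the levels of the 6 sequences was not tested. In RNA from whole tissue, more cells of a type and more RNA per cell cannot be told apart.

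**Figure D5:**
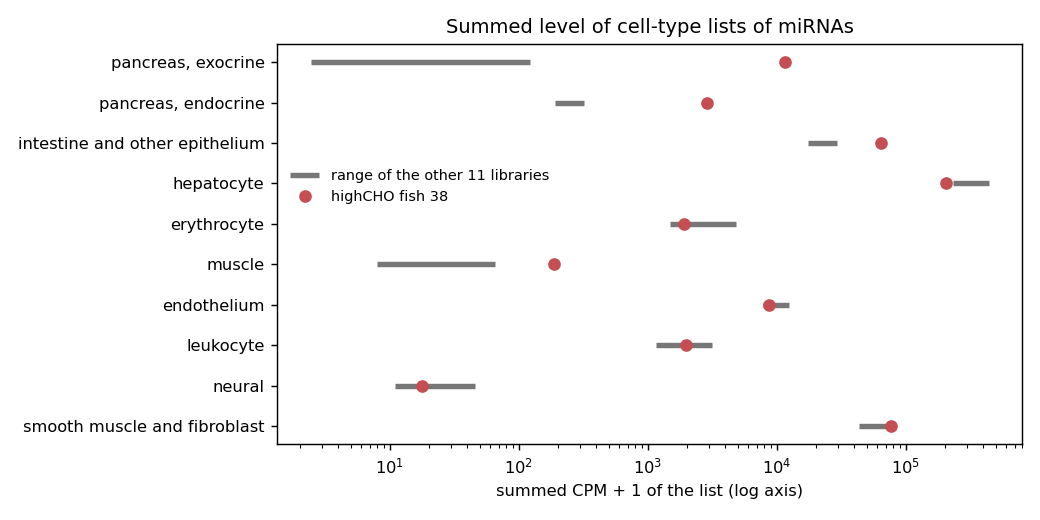
Summed CPM + 1 (log axis) of 10 lists of miRNA families in fish 38 (points) and the range of the other 11 libraries (bars). Fish 38 lies above the range for both pancreas lists, the intestinal and epithelial list and the muscle list, below it for the hepatocyte list, and inside it for the other 5; the pancreas sums include 2 and 3 of the 6 selected sequences.

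The 8 sequences most like the summed level of the 5 miR-216b, miR-375 and miR-7 sequences over 12 libraries, by Pearson's r of log2(CPM + 1), were found among sequences with at least 100 counts. With fish 38 apart from the rest, this measure mainly picks what is high there. They were ssa-miR-8159-3p, the candidates PC-5p-4786_167, PC-5p-9254_65, PC-5p-13249_39, PC-5p-1744_747 and PC-5p-3432_269, ccr-miR-143 and dre-miR-217_R+1, with r from 0.99 down to 0.93. All but PC-5p-1744_747 and ccr-miR-143 reached 100 counts only through fish 38, with at most 35 counts in the other 11 libraries together. Their r was thus largely set by that library, and nothing is read from it. PC-5p-1744_747 had 2113 counts in fish 38 (1102 CPM) and at most 38.2 CPM elsewhere. PC-5p-4786_167 and PC-5p-13249_39 had 325 and 125 counts in fish 38 and 3 and 0 in the other 11 together. ccr-miR-143, a smooth-muscle miRNA, was at 26595 CPM against 9909 to 12692 CPM. Over the 11 libraries without fish 38 the 5 highest Spearman's rho were those of ssa-miR-214-5p (0.85), dre-miR-365 (0.79), ssa-let-7a-4-3p (0.78), ssa-miR-8160-5p (0.75) and dre-miR-181b-5p_R+1 (0.68). None of these 5 is among the first 8, and there the sum consists mostly of miR-375 and miR-7.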

How the data were processed

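Per the labels, frozen liver was extracted with Trizol and an Illumina TruSeq RNA kit was applied to 1 ug of RNA. The first deposited table gives read counts per library: raw, adapter-containing, under 15 nt, over 32 nt and mappable. The second deposited table gives 1 line per miRNA sequence with estimated counts, in which shared reads were split (85.1% of values are whole), and the authors' normalized signal, which equals the estimated count divided by 1 size parameter per library, with zeros as 0.001, and was not used for tests. Bowtie 1.1.1 is named in the submitters' processing notes, with no role. How shared reads were divided, which genome build was used and which miRNA database served are not given in the sources consulted. Coordinates of miRNAs were not analysed here. The table has 4 blank lines, left out, 988 known names and 708 candidates. It has 0 sample columns outside the groups, and 0 pairs of libraries were identical.

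Estimated counts were rounded and fitted with edgeR 4.0.16 in R 4.3.3 (TMM, expression filter by group, quasi-likelihood test, 9 residual degrees of freedom), two-sided, with Benjamini-Hochberg adjustment over all sequences tested. The fit was tested on simulated data in which changes were shared by all fish of a group and no library was an outlier. That test therefore does not cover sequences concentrated in 1 fish. CPM used unrounded counts and TMM-scaled library sizes. Log2 levels carry a pseudocount of 1 CPM, which understates changes of low sequences. Intervals are 95% exact (Clopper-Pearson) and, like the floor of 3 counts, cover only counting error: with no molecular identifiers, reads are not independent molecules. Replicates are separate fish by their numbers in the labels. Alternatives were median-ratio and total scaling, no filter, DESeq2 1.42.0, mappable reads or miR-122 as denominator, other pseudocounts and each library left out. The 6 members, the cell-type lists (by family number in the name) and the tests were chosen with earlier results of these data known. Named sequences are the 6, the 8 and the 5 sequences most like them by the measures stated, the other pancreas-list sequences and the most abundant of each list. Any other name was chosen after its values were seen.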

Additional observations from a re-analysis of the deposited data

Results flagged for a closer look

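Within each group of 4, 1 fish could be so far from the other 3 that the gap to the nearest, divided by the group's whole range, passed Dixon's 95% critical value for 4 samples. This was computed on CPM for the 6 sequences and dre-miR-217_R+1 in 3 groups, 21 in all, of which 13 passed. The mark serves only to list values and is not a test. On log2 levels, which were not used here, the gap of a high fish is a smaller share of the range. Chance flags about a share of 0.05 of groups. That share is no reference here, since the 6 sequences were selected on these counts and move together, so the values below are a description.

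In highCHO fish, fish 38 was the distant one. The gap was 0.997 of the range for ssa-miR-216b-5p, 0.990 for dre-miR-216b, 0.987 for dre-miR-375, 0.998 for ssa-miR-8159-5p_R-2 and 0.997 for dre-miR-217_R+1. In fasted fish, fish 7 was distant, at 0.966 for ssa-miR-216b-5p, 0.910 for dre-miR-216b, 0.832 for dre-miR-375, 0.959 for ssa-miR-8159-5p_R-2 and 0.926 for dre-miR-217_R+1. Among noCHO fish, fish 20 was distant at 0.970 for ssa-miR-216b-5p (19.2 CPM against at most 1.53) and 0.853 for dre-miR-216b (13.5 CPM against at most 2.29). Fasted fish 10 was distant for ssa-miR-7a-3-3p_1ss22AC, at 0.930 (17.1 CPM against 11.8 to 12.1). That level rests on 15 counts, and its interval of 9.57 to 28.2 CPM covers the other fasted fish.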

How the results depend on the processing

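The ratio of fish 38 to the highest other library in the summed level of the 5 miR-216b, miR-375 and miR-7 sequences was 37.9, and 38.7, 40.4 and 39.4 with median-ratio scaling, total scaling and no filter. It was 24.0 per mappable read and 48.4 per miR-122 count (all 5 chosen after seeing the data). The median r of the 15 pairs, 0.19 over 11 libraries, was 0.31 and 0.12 with pseudocounts of 0.1 and 5 CPM and 0.26 per miR-122 count. Leaving out each of the 11 libraries gave −0.10 (without fish 7) to 0.32.

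Calls over all sequences were 0 for noCHO against fasted, 21 for highCHO against fasted and 8 for highCHO against noCHO in edgeR, with 23, 92 and 66 at an unadjusted p under 0.05. They were 4, 54 and 52 without the filter, 2, 35 and 22 with DESeq2, and 0, 13 and 3 with total scaling. Leaving out each library gave 0 to 2, 7 to 25 and 2 to 18. No paired analysis was possible because the groups share no replicate numbers.

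Of 90 differences of the 6 sequences recomputed under other scalings and denominators, 86 stayed within 1 replicate SD of the reported value, as did all 144 with a library left out. That SD includes fish 38 and is wide for the 4 sequences concentrated there (3.64 for ssa-miR-216b-5p, highCHO against fasted), so it shows no stability: without fish 38 highCHO against fasted went from 2.54 to 0.20 for ssa-miR-216b-5p, 2.43 to −0.02 for miR-8159, 1.79 to −0.56 for dre-miR-216b and 1.09 to −0.19 for dre-miR-375. The 4 values outside 1 SD were of miR-7: for fru-miR-7_R+2, noCHO against fasted was 0.21 per miR-122 count, and highCHO was −0.11 against fasted and −0.71 against noCHO per mappable read. ssa-miR-7a-3-3p_1ss22AC was −0.36 for noCHO against fasted per miR-122 count. The cause was not tested. Depth limits the levels under about 10 CPM, most of all in fish 49.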

Other observations

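Some other sequences, chosen after their values were seen, were far higher in fish 38 than elsewhere. ssa-miR-194b-5p_R+2_2ss11TA18AG, named for the intestinal and hepatic miRNA miR-194, was at 534 CPM against at most 45.7 CPM (11.7-fold), and fru-miR-135b_R+1 at 47.4 CPM against at most 4.33 CPM (10.9-fold). ssa-miR-194c-3p had 25 counts in fish 38 and 0 in the other 11 libraries. dre-miR-129-5p_R-1, a miRNA of neurons and endocrine cells, had 28.5 counts in fish 38 and 7 in the other 11 together.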
